A study of Homo sapiens with 5 samples.

Results

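The transcripts described here are 10 genes whose products tell lymphocytes and macrophages whether to attack a cell. They were chosen by name from the 31029 genes listed for both cell lines, and all 10 were found by their Ensembl identifiers. MICA, MICB, ULBP1, ULBP2 and ULBP3 are ligands of NKG2D, an activating receptor of natural killer (NK) cells and cytotoxic T cells. NCR3LG1 (B7-H6) is a ligand of NKp30, another activating NK receptor. CD274 (PD-L1), PDCD1LG2 (PD-L2) and CD276 (B7-H3) belong to the B7 family, and CD47 is the ligand through which cells restrain phagocytosis.

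RNA-seq was performed on 2 libraries of 501Mel, a human melanoma cell line, and 3 libraries of Hermes 3A, a human melanocyte line that is immortal but not transformed. Both lines carried lentiviral shRNA against BPTF, the largest subunit of the NURF chromatin remodeller, and were selected with puromycin. The paper lists 2 shBPTF constructs, and which of them each library carried is not given. Libraries without shBPTF were not analysed here, so the values compare Hermes 3A shBPTF with 501Mel shBPTF and give no effect of BPTF silencing. The paper reports that most cells of both lines stained for senescence-associated β-galactosidase after BPTF silencing. The values may therefore not be those of growing cells, and the part of senescence in them was not tested. The lines were grown in different media, since the Hermes 3A medium also held a phorbol ester, cholera toxin, stem cell factor and endothelin, and cell line and medium cannot be told apart.

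NKG2D ligands are held at low levels in most healthy cells and are induced by DNA damage, heat shock and other stress, after which NK cells can kill the cell that displays them. Tumour cells also release these ligands from their surface with metalloproteases. CD274 and PDCD1LG2 act in the opposite sense, since both bind PD-1 on T cells and dampen them, and CD274 is strongly induced by interferon gamma. Transcript levels do not give the amount of protein at the cell surface.

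Total counts ranged from 30073071 to 43032311 per library, so that 3 counts were worth 0.0697 to 0.0998 CPM, the count of a gene scaled to the same library total. BPTF itself had 65.8 and 57.8 CPM in the 501Mel libraries and 45.8, 51.6 and 54.1 CPM in the Hermes 3A libraries. Correlations of log CPM were 0.975 to 0.989 within a line and 0.821 to 0.836 between lines. The 7 melanocyte markers summed to between 12718 and 19661 CPM in 501Mel cells and between 31651 and 32728 CPM in Hermes 3A cells, and DCT, a melanin enzyme, was the 1 marker that was lower in Hermes 3A cells by the test. The leukocyte markers, 6 in Hermes 3A cells and 5 in 501Mel cells, where CD3E was not listed, summed to at most 0.612 CPM in any library, and PTPRC was at 0 in 4 of the 5. The 5 fibroblast markers summed to 4.23 to 17.7 CPM in 501Mel cells and 78.3 to 190 CPM in Hermes 3A cells, where nearly all came from COL1A2, and the 3 endothelial markers listed of 4 (PECAM1 was not) to 0.651 to 0.792 and 9.25 to 12.9 CPM, mostly from KDR. Of the 5 keratinocyte markers KRT5 and KRT1 were not listed for either line and KRT14 was listed for 501Mel cells alone, and those listed, almost entirely KRT10, summed to 32.7 to 34.2 and 43.6 to 48.0 CPM. The part of these markers in the results below was not tested.

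The upstream sequences of MICA and MICB are shown because these neighbouring genes of the MHC region were the NKG2D ligands with the most transcripts in Hermes 3A cells. Each line gives the 250 bases before the RefSeq start of transcription, read on the plus strand of GRCh38.p14. The printed window of MICA lies at chr6:31403345-31403594 and that of MICB at chr6:31497895-31498144. Both windows lie inside the GENCODE bounds of the genes given below, which begin farther upstream than the RefSeq starts. The capitals mark GAANNTTC, a core arrangement of the binding element of heat shock factors.
MICA: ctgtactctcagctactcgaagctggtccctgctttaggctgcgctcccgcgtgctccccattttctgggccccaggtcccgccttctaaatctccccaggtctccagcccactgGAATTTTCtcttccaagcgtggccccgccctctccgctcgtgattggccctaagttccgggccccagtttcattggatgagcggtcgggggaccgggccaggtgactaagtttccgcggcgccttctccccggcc
MICB: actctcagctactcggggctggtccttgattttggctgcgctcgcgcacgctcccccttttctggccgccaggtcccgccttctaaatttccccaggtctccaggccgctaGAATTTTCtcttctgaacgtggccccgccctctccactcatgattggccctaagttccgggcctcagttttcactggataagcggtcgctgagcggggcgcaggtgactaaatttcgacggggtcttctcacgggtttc

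The pair shared 210 identical bases over 254 aligned columns, or 82.7%. The capital letters began 135 bases before the start of MICA and 139 bases before that of MICB. Of the 9 genes with a RefSeq promoter (PDCD1LG2 had none in the table), MICA and MICB alone held GAANNTTC within 300 bases around the start, and 6.77% of all 35116 human promoters of that length held it. Because the sequences of the pair are so alike, their matches are not independent of each other. The arrangement TTCNNGAA, in 7.74% of all promoters, was in none of the 9. The E-box letters CACGTG and CATGTG, the forms that MITF binds, were in none of the 9 and in 7.26% and 11.1% of all promoters. GGGCGG, a GC box, was in all 9 and in 45.0% of all promoters, and CCAAT was in 4 of the 9 and in 34.6% of all. The content of G and C ranged from 56.7% (ULBP2) to 80.3% (CD276), against a median of 58.7% over all promoters. A gene held a motif if any of its promoters did, while the background counts each promoter, so the shares are not strictly alike. Motifs were searched on both strands, and a match is a description of the letters only. Binding or action of a heat shock factor at these genes was not tested. The transcript of HSF1, the main heat shock factor, was chosen for mention after the values were seen, and had 78.8 and 85.1 CPM in 501Mel libraries and 114, 120 and 111 CPM in Hermes 3A libraries. Its log2 difference of 0.55 passed the edgeR test (adjusted p = 0.0112) but not without 501Mel replicate 1 (adjusted p = 0.0712).

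Of the 9 genes with enough counts to be tested, 4 were higher in Hermes 3A cells and 1 was higher in 501Mel cells at an adjusted p under 0.05 (edgeR quasi-likelihood test, adjusted over all 17975 genes tested). The 5 calls stand beside a background of 48.2% of all genes tested, with 24.0% higher in Hermes 3A cells and 24.2% higher in 501Mel cells, so that the share called among these genes was near that of the whole transcriptome. Without 501Mel replicate 1 the calls fell to 3. In these bulk libraries fewer expressing cells and less RNA per cell cannot be told apart. MICA, MICB, ULBP1 and CD276 were higher in Hermes 3A cells and ULBP3 was higher in 501Mel cells. NCR3LG1, CD274, ULBP2 and CD47 did not pass the threshold, and PDCD1LG2 was too low to test. The ranges of the lines did not overlap for 7 of the 9 genes, against 69.8% of all genes tested. The median difference of the 9 genes was 0.57 on the log2 scale and that of all genes was -0.02. The median absolute differences were 0.80 and 0.79. Differences below are Hermes 3A minus 501Mel on the log2 scale, with the standard error (SE) and 95% interval of the fit.

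**Figure D1:**
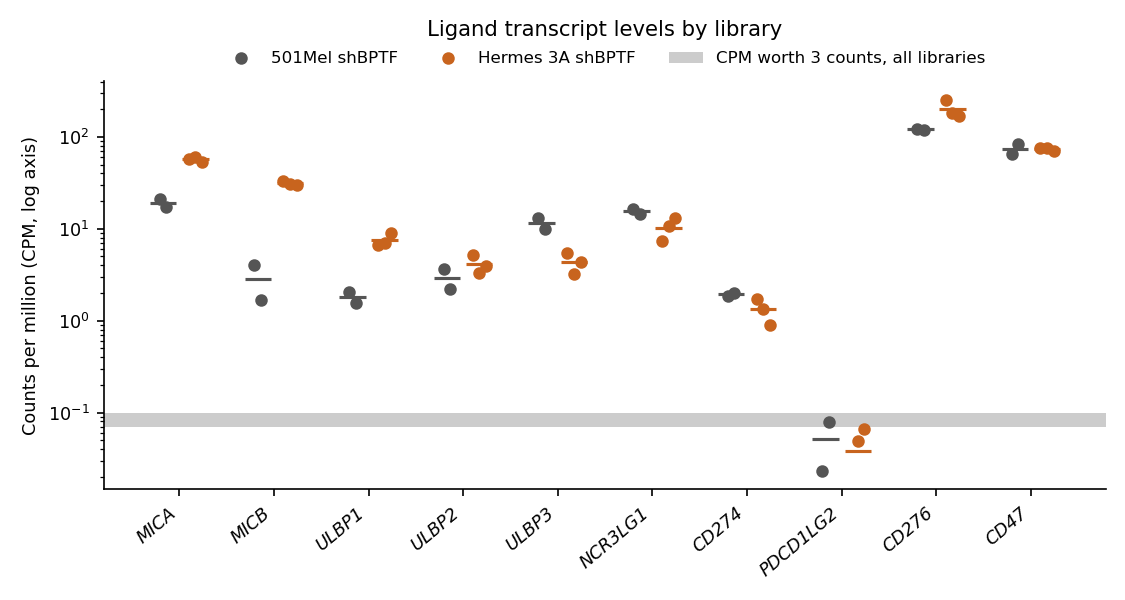
CPM of the 10 transcripts on a log axis, with 1 point per library (501Mel shBPTF, n = 2, Hermes 3A shBPTF, n = 3) and a line at each mean. The grey band is the CPM worth 3 counts, PDCD1LG2 sits in or below it in every library, and its value of 0 in Hermes 3A replicate 1 is not drawn.

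MICA (ENSG00000204520) encodes a stress-induced NKG2D ligand related to MHC class I and lies on chromosome 6 of GRCh38, from 31399784 to 31415315 on the plus strand. It had 901 and 655 counts in the 501Mel libraries, or 20.9 and 17.3 CPM, and 58.0, 60.6 and 53.4 CPM in the Hermes 3A libraries. Every Hermes 3A library was above both 501Mel libraries, and the spread within each line was small beside the gap. The mean was 19.1 CPM ± 2.57 (SD, n = 2) in 501Mel cells and 57.4 CPM ± 3.63 (SD, n = 3) in Hermes 3A cells. The difference was 1.65 (SE 0.165, interval 1.26 to 2.04), a 3.13-fold higher level, with an edgeR adjusted p of 0.000342.

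MICB (ENSG00000204516), its neighbour and close relative, also binds NKG2D and lies from 31494881 to 31511124 on the plus strand of chromosome 6. The 501Mel libraries had 173 and 64 counts, or 4.02 and 1.69 CPM, and the Hermes 3A libraries had 33.3, 30.4 and 30.0 CPM. The line ranges were far apart, and relative to the mean the 501Mel libraries varied more (coefficient of variation 57.7%) than the Hermes 3A libraries (5.74%). MICB showed the largest difference of the 9 genes, 3.52 (SE 0.384, interval 2.61 to 4.42), with an edgeR adjusted p of 0.000483, and 90.4% of all genes tested had a smaller absolute difference. Without 501Mel replicate 1, the library with more MICB, the difference was 4.26. In the transcripts of GENCODE, 1.89% of the 50-base words of MICA also occurred in MICB, so reads of the pair could be split by the counting. The summed counts of MICA and MICB differed by 2.08 (SE 0.173, interval 1.67 to 2.48, edgeR adjusted p = 0.000163).

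The pair differed in proportion as well as in level. Counts of MICB were 0.192 and 0.0977 of those of MICA in the 501Mel libraries and 0.574, 0.502 and 0.561 of them in the Hermes 3A libraries. All 3 Hermes 3A ratios were above both 501Mel ratios, with an exact two-sided permutation p of 0.2, which is the smallest that 2 against 3 libraries allow.

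ULBP1 (ENSG00000111981, chromosome 6, from 149964007 to 149973710, plus strand), a ligand of NKG2D from the ULBP cluster on the long arm, was the third member of the group that was higher in Hermes 3A cells. It had 89 and 59 counts, or 2.07 and 1.56 CPM, in the 501Mel libraries and 6.70, 6.97 and 9.08 CPM in the Hermes 3A libraries. The ranges did not overlap. The difference was 2.12 (SE 0.338, interval 1.33 to 2.92, edgeR adjusted p = 0.00230), or 4.36-fold.

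ULBP2 (ENSG00000131015, from 149942000 to 149949235), which is attached to the membrane by a lipid anchor, had 159 and 83 counts, or 3.69 and 2.19 CPM, in 501Mel cells and 5.19, 3.30 and 3.96 CPM in Hermes 3A cells. The ranges overlapped, and the difference of 0.57 (SE 0.400, interval -0.37 to 1.51) did not pass the test with an edgeR adjusted p of 0.274. Of its 50-base words, 29.4% also occur in RAET1L, the gene of another NKG2D ligand, so the counting could split reads between them. RAET1L had 0 counts in both 501Mel libraries and 9, 7 and 1 counts in the Hermes 3A libraries.

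ULBP3 (ENSG00000131019, from 150063150 to 150069095, minus strand) was the 1 NKG2D ligand transcript of the 5 that was higher in 501Mel cells by the test. The 501Mel libraries had 560 and 372 counts, or 13.0 and 9.83 CPM, and the Hermes 3A libraries had 5.45, 3.25 and 4.32 CPM. Both 501Mel libraries were above all Hermes 3A libraries. The difference was -1.32 (SE 0.329, interval -2.09 to -0.55, edgeR adjusted p = 0.0139). The call was lost without 501Mel replicate 1 (-1.12, adjusted p = 0.0818), without Hermes 3A replicate 2 (-1.07, adjusted p = 0.0571) and without Hermes 3A replicate 3 (-1.26, adjusted p = 0.0574) in the edgeR fit. Of its 50-base words, 12.4% also occur in RAET1K.

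**Figure D2:**
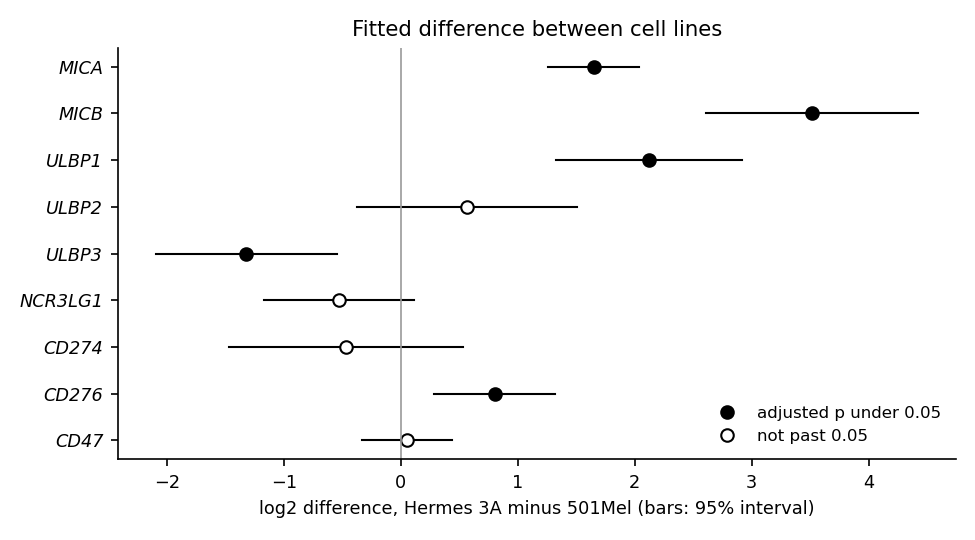
Log2 difference between the cell lines, Hermes 3A minus 501Mel, for the 9 transcripts tested, with 95% intervals of the edgeR fit. Filled points passed an adjusted p of 0.05, and MICB lies farthest to the right at 3.52 and ULBP3 farthest to the left at -1.32.

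The makeup of the 5 NKG2D ligands differed between the lines on a scale of CPM per kb of exon, which allows genes of unequal length to be compared. ULBP3 took 49.2% and 49.9% of their summed level in the 501Mel libraries and 11.6%, 7.44% and 10.1% in the Hermes 3A libraries. The share of MICA was 32.8% and 36.4% in the 501Mel libraries against 51.0%, 57.4% and 51.7% in those of Hermes 3A. The share of MICB was 5.37% and 3.03% in the melanoma libraries and 24.9%, 24.6% and 24.7% in the melanocyte libraries. On this scale ULBP3 was the most abundant NKG2D ligand transcript in both 501Mel libraries, and MICA was in all 3 Hermes 3A libraries. By counts without regard to length, MICA was above ULBP3 in both 501Mel libraries as well (901 and 655 against 560 and 372). The summed level per kb was 26.8 and 19.9 in the 501Mel libraries and 47.7, 44.2 and 43.3 in the Hermes 3A libraries. The shares are described, not tested. With the longest coding transcript of each gene as its length, ULBP3 took 47.9% and 48.7% in 501Mel cells and MICA between 50.6% and 56.8% in Hermes 3A cells. The length of ULBP3 itself was 988 bases in both cases, so its rank in 501Mel cells rests on that length. Of the 50-base words, 32.2% of ULBP2, 12.4% of ULBP3 and 6.85% of ULBP1 also occur in other genes, against 2.43% of MICA and 2.86% of MICB. How reads of such stretches were counted is not given, so the shares could also depend on it.

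Counts of ULBP3 were 3.52 and 4.48 times those of ULBP2 in the 501Mel libraries and 1.05, 0.985 and 1.09 times those in the Hermes 3A libraries. The ratios of the lines did not overlap, and the exact two-sided permutation p was 0.2, the smallest possible here. The adjusted p over this ratio and that of MICB to MICA was also 0.2.

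**Figure D3:**
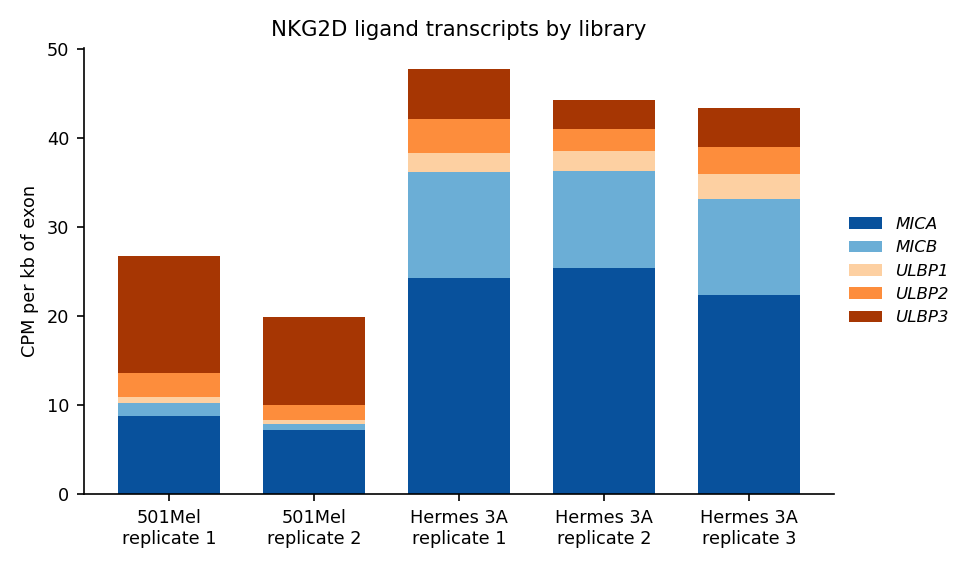
Stacked levels of the 5 NKG2D ligand transcripts in each library, in CPM per kb of exon. The bars reach 26.8 and 19.9 in the 501Mel libraries, with ULBP3 the widest segment, and 43.3 to 47.7 in the Hermes 3A libraries, with MICA the widest.

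NCR3LG1 (ENSG00000188211, chromosome 11, from 17351726 to 17377341, plus strand), the tumour-associated ligand of NKp30, had 703 and 551 counts, or 16.3 and 14.6 CPM, in 501Mel cells. Hermes 3A libraries had 7.30, 10.6 and 13.1 CPM, all below both 501Mel libraries, though replicate 3 came close. The difference of -0.53 (SE 0.272, interval -1.17 to 0.11) did not pass the test, with an edgeR adjusted p of 0.148.

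CD274 (ENSG00000120217, chromosome 9, from 5450503 to 5470566, plus strand) had 80 and 76 counts in the 501Mel libraries and 72, 55 and 27 in the Hermes 3A libraries. These were 1.86 and 2.01 CPM against 1.73, 1.35 and 0.898 CPM. The 501Mel libraries were slightly above all Hermes 3A libraries, but the difference of -0.47 (SE 0.426, interval -1.47 to 0.53) did not pass the test (edgeR adjusted p = 0.392). PDCD1LG2 (ENSG00000197646, from 5510570 to 5571254), the gene next to CD274, had 1 and 3 counts in 501Mel cells and 0, 2 and 2 counts in Hermes 3A cells. Each library was at or under 3 counts, so no level above that floor was detectable at this depth and no fold is given.

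CD276 (ENSG00000103855, chromosome 15, from 73683966 to 73714518, plus strand), a B7 protein found on many tumours whose receptor is unsettled, was the highest of the 10 transcripts per kb in every library. It had 5240 and 4549 counts, or 122 and 120 CPM, in 501Mel cells and 252, 180 and 170 CPM in Hermes 3A cells. Every Hermes 3A library was above both 501Mel libraries, and Hermes 3A replicate 1 stood well above the other two. The difference was 0.80 (SE 0.220, interval 0.28 to 1.32, edgeR adjusted p = 0.0203), or 1.74-fold. It was 0.58 without Hermes 3A replicate 1, where the call held, and the call was lost without 501Mel replicate 1 (0.80, edgeR adjusted p = 0.0897) or without 501Mel replicate 2 (0.82, edgeR adjusted p = 0.0783).

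CD47 (ENSG00000196776, chromosome 3, from 108043094 to 108091862, minus strand) had 2778 and 3201 counts, or 64.6 and 84.6 CPM, in 501Mel cells and 74.9, 76.7 and 70.5 CPM in Hermes 3A cells. All Hermes 3A values fell between the 501Mel values. The difference was 0.05 (SE 0.163, interval -0.33 to 0.43, edgeR adjusted p = 0.815), and its sign changed with the scaling to total counts alone (-0.02) and without 501Mel replicate 1 (-0.14).

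Ordered by level per kb of exon in 501Mel cells, CD276 came first at 21.8 ± 0.205 (SD, n = 2), followed by ULBP3 at 11.6 ± 2.28, CD47 at 9.06 ± 1.72 and MICA at 8.01 ± 1.08. The intervals of 1 SD of ULBP3 and CD47 overlapped, as did those of CD47 and MICA, while both ULBP3 libraries were above both values of MICA. NCR3LG1 (2.40 ± 0.196) and ULBP2 (2.18 ± 0.788) were also within their spread of each other, and MICB at 1.02 ± 0.589, ULBP1 at 0.577 ± 0.115 and CD274 at 0.471 ± 0.0256 followed, with ULBP1 within its spread of both. In Hermes 3A cells CD276 at 36.2 ± 8.10 (SD, n = 3) was followed by MICA at 24.0 ± 1.52, MICB at 11.2 ± 0.641, CD47 at 9.00 ± 0.387 and ULBP3 at 4.40 ± 1.11. ULBP2 (3.08 ± 0.708), ULBP1 (2.41 ± 0.414) and NCR3LG1 (1.60 ± 0.450) came next, and from ULBP3 to NCR3LG1 the intervals of 1 SD of each pair of neighbours overlapped, then CD274 at 0.322 ± 0.101. With the longest coding transcript as the length, the mean of CD47 stood above that of MICB in Hermes 3A cells and above that of ULBP3 in 501Mel cells (14.3 against 11.6).

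The other 14 NK receptor ligands on the list gave 11 tested genes, of which 5 were higher in Hermes 3A cells, 1 was higher in 501Mel cells and 5 did not pass, with a median difference of 0.84. Of all genes tested 48.2% were called, 24.0% higher in Hermes 3A cells and 24.2% higher in 501Mel cells, with a median difference of -0.02. No list was tested as a set. HLA-E, the nonclassical MHC molecule that binds the inhibitory receptor CD94/NKG2A, had 71.6 and 59.4 CPM in 501Mel cells and 452, 669 and 672 CPM in Hermes 3A cells. Its difference was 3.25 (SE 0.226, edgeR adjusted p = 8.16e-05), and every Hermes 3A library was far above both 501Mel libraries. How far reads of HLA-E were shared with other HLA genes was not tested. PDGFD, a growth factor that also binds NKp44, had 39.6 and 45.7 CPM in 501Mel cells and 2.81, 2.62 and 2.03 CPM in Hermes 3A cells, a difference of -4.03 (SE 0.233, edgeR adjusted p = 4.34e-05).

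NECTIN2 and PVR encode ligands of the activating receptor DNAM-1 and the inhibitory receptor TIGIT. NECTIN2 had 43.7 and 33.1 CPM in 501Mel cells and 69.8, 81.1 and 95.9 CPM in Hermes 3A cells, and its difference of 1.16 (SE 0.188) passed with an edgeR adjusted p of 0.00248. PVR had 51.6 and 48.9 CPM in 501Mel cells and 118, 67.6 and 70.6 CPM in Hermes 3A cells, with a difference of 0.84 (SE 0.283, edgeR adjusted p = 0.0431). The PVR call was lost without 501Mel replicate 1 (adjusted p = 0.137), without 501Mel replicate 2 (adjusted p = 0.142) or with at least 10 counts asked in every library (adjusted p = 0.0507) in the edgeR fit. RAET1G, another NKG2D ligand, had 0.279 and 0.132 CPM against 0.744, 0.808 and 0.931 CPM, with a difference of 2.04 (SE 0.524, edgeR adjusted p = 0.0157), and did not pass without 501Mel replicate 2 (edgeR adjusted p = 0.101). Without 501Mel replicate 1 the RAET1G difference was 2.66. RAET1G had only 12 and 5 counts in the 501Mel libraries.

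Of the 18 other B7 family, checkpoint and costimulatory ligands, 13 were tested. There were 5 higher in Hermes 3A cells, 3 higher in 501Mel cells and 5 that did not pass, with a median difference of 1.08. The background of all genes tested was 48.2% called. CD200, whose receptor inhibits myeloid cells, had only 9 and 15 counts, or 0.209 and 0.396 CPM, in 501Mel cells. It had 1.82, 3.99 and 5.15 CPM in Hermes 3A cells, a difference of 3.63 (SE 0.625, edgeR adjusted p = 0.00315). NT5E (CD73), an ectoenzyme that makes adenosine, had 1 and 0 counts in 501Mel cells and 125, 48.5 and 38.5 CPM in Hermes 3A cells. CEACAM1, an inhibitory adhesion molecule, had 73.2 and 149 CPM in 501Mel cells and 6.60, 4.18 and 4.76 CPM in Hermes 3A cells, with a difference of -4.35 (SE 0.363, edgeR adjusted p = 0.000166) that was -3.72 without 501Mel replicate 2. HHLA2, a B7 family member, had 47 and 139 counts against 4, 2 and 1 counts. NT5E and HHLA2 passed the edgeR test with adjusted p-values of 0.000232 and 0.00158, and no fold is given because 1 line was at or near 3 counts.

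**Figure D4:**
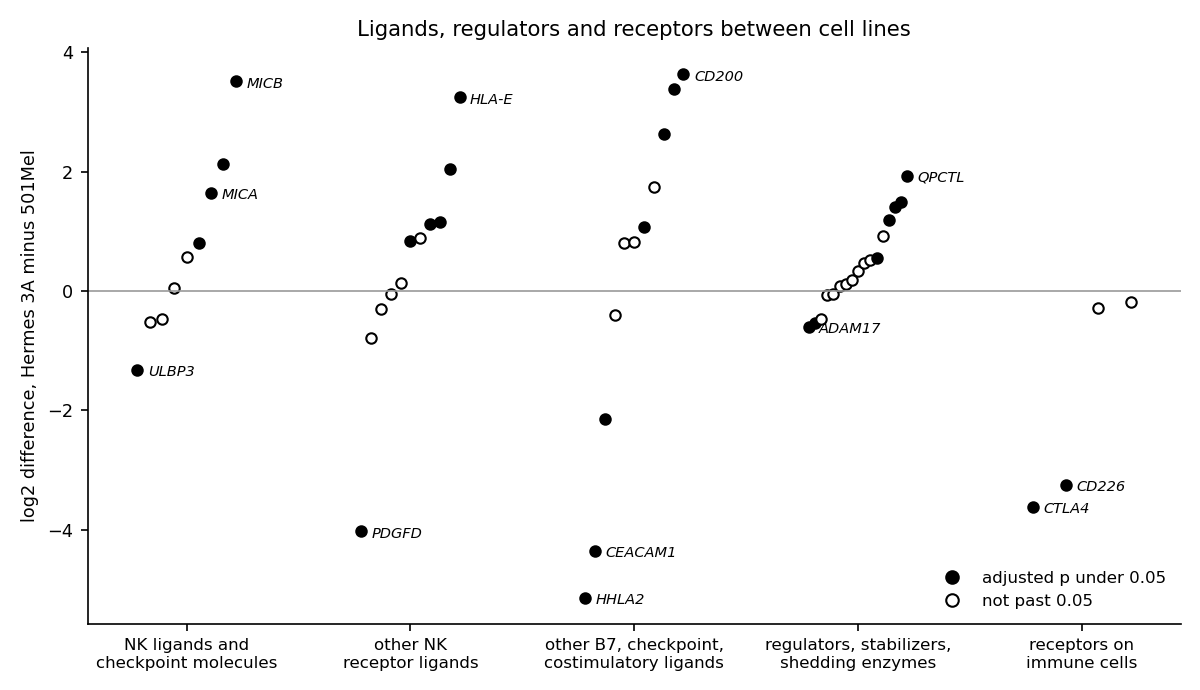
Log2 difference, Hermes 3A minus 501Mel, for 52 tested genes, 1 point per gene in 5 groups ordered by value. Filled points passed an edgeR adjusted p of 0.05, and CD86, NT5E and HCST are left out because 1 line had at most 3 counts in each library. MICB, HLA-E, CD200 and ICOSLG lie above 3, and PDGFD, CEACAM1 and HHLA2 below -4. HHLA2, drawn lowest, had only 4, 2 and 1 counts in Hermes 3A cells. CD200 had only 9 and 15 counts and ICOSLG only 8 and 9 counts in 501Mel cells.

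Among 17 regulators, stabilizers and shedding enzymes, all tested, 5 were higher in Hermes 3A cells, 2 were higher in 501Mel cells and 10 did not pass, with a median difference of 0.33. Beside them, 48.2% of all genes tested were called. STUB1, a ubiquitin ligase that acts on CD274 protein, had 37.6 and 35.7 CPM against 88.0, 70.5 and 80.2 CPM, with a difference of 1.19 (SE 0.169, edgeR adjusted p = 0.00145). CMTM6, which keeps CD274 at the membrane, had 104 and 111 CPM against 98.1, 97.6 and 99.0 CPM, and its difference of -0.07 (interval -0.37 to 0.23) did not pass the edgeR test (adjusted p = 0.668).

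QPCTL, the enzyme that modifies CD47 for binding to SIRPA, had 26.1 and 29.4 CPM in 501Mel cells and 96.0, 107 and 103 CPM in Hermes 3A cells, a difference of 1.94 (SE 0.142, edgeR adjusted p = 0.000108). Metalloproteases that release NKG2D ligands from the surface did not all move in 1 direction. MMP14 had 342 and 386 CPM against 1050, 875 and 1026 CPM, a difference of 1.50 (SE 0.189, edgeR adjusted p = 0.000886). ADAM17 had 83.3 and 86.9 CPM against 53.4, 49.1 and 58.6 CPM, a difference of -0.60 (SE 0.144, edgeR adjusted p = 0.0122), and it did not pass without 501Mel replicate 2 or Hermes 3A replicate 2 (edgeR adjusted p = 0.0713 and 0.0754). ADAM10 had 227 and 232 CPM against 191, 248 and 264 CPM, and its difference of 0.09 (interval -0.29 to 0.46) did not pass (edgeR adjusted p = 0.672).

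Of 13 receptors carried by immune cells, 8 were too low to test or listed for 1 line only. The 5 tested gave 1 gene higher in Hermes 3A cells, 2 higher in 501Mel cells and 2 that did not pass, with a median difference of -0.28. Among all genes tested the share called was 48.2%. CTLA4, the inhibitory receptor for CD80 and CD86, had 868 and 571 counts in 501Mel cells, or 20.2 and 15.1 CPM, and 1.30, 1.30 and 1.53 CPM in Hermes 3A cells, a difference of -3.62 (SE 0.279, edgeR adjusted p = 0.000126). In the same 501Mel libraries the leukocyte marker PTPRC had 2 and 0 counts. ITGAM, the highest of the 5 leukocyte markers listed there, had 3 and 9. The source of the CTLA4 reads was not tested. CD226 (DNAM-1) had 24 and 33 counts against 1, 7 and 0, and its call (edgeR adjusted p = 0.0201) was lost without either 501Mel library (adjusted p = 0.0565 without replicate 1 and 0.108 without replicate 2). HCST, the adaptor of NKG2D, had 3 and 2 counts against 23, 23 and 18 (edgeR adjusted p = 0.00353), and KLRK1, which encodes NKG2D, was too low to test. SIRPA, the receptor of CD47, had 206 and 352 CPM in 501Mel cells and 218, 250 and 244 CPM in Hermes 3A cells, and its difference of -0.18 (interval -0.72 to 0.36) did not pass (edgeR adjusted p = 0.552).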

How the data were processed

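Read counts per gene, whole numbers without normalization, were deposited by the authors for 5 libraries made from total RNA after ribosomal RNA depletion and normalization with a duplex-specific nuclease, a step that can compress differences of abundant transcripts. The submitters' processing notes name CASAVA 1.8, Bowtie 0.12.7, TopHat 1.4.1 and hg19. The counting program, annotation and use of strand are not given in the sources used here, so reads of overlapping genes cannot be told apart. The lines were listed with different genes (37259 and 34033), and the 31029 genes in both were used.

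Names, coordinates and exon lengths are those of GENCODE 29 on GRCh38, not of hg19. Hermes 3A was compared with 501Mel with edgeR 4.0.16 in R 4.3.3 (quasi-likelihood test, TMM, filterByExpr) and Benjamini-Hochberg adjustment over 17975 genes. The labels do not say that replicates are separate cultures, so p-values measure the spread between these samples. On simulated counts for this comparison (17389 genes, dispersion 0.0724) the fit called 12.2% of changes of 1 on the log2 scale and 93.8% of changes of 2. The simulation changed only 98 genes by 1 and 96 by 2, with the same dispersion for all genes, while 48.2% of genes were called in the data. The adjustment is stricter where few genes change, so these shares do not carry over to the data.

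The 10 genes and all lists were chosen with earlier results of these data known. Named are the 10 genes, up to 4 called genes with the largest absolute difference per list, and PVR, NECTIN2, HLA-E, CMTM6, QPCTL, ADAM10, ADAM17 and SIRPA. A gene that this rule names is not reported here. Alternatives were other scalings, DESeq2 1.42.0, other filters, each library left out, a replicate block, and, added after seeing the data, unlisted genes set at 0.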

Additional observations from a re-analysis of the deposited data

How the results depend on the processing

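MICA, MICB and ULBP1 stayed past the threshold in every alternative run, and NCR3LG1, CD274, ULBP2 and CD47 passed in none. With each library left out in turn, the number of these genes called ranged from 3 to 5, the number of list genes called from 19 to 28 and that of all genes called from 6059 to 9282. The lowest number of these genes came without 501Mel replicate 1, a fit in which 501Mel had no replicates. Direction turned for genes that did not pass: CD47 (-0.018 with total counts only, and -0.14 without 501Mel replicate 1), CMTM6 (0.0063 without 501Mel replicate 2 and 0.0087 without Hermes 3A replicate 2, from a low of -0.13 with another library left out), SIRPA (0.29 without 501Mel replicate 2 and -0.52 without replicate 1) and ADAM10 (-0.0075 with the replicate block), and the cause was not tested. Replicate numbers are shared by the lines, but the labels give them no common origin. Deviations of log CPM from the mean of each line correlated by 0.105 and 0.121 between same-numbered libraries. With 2 libraries of 501Mel the deviations mirror each other, so the same Hermes 3A libraries gave -0.105 and -0.121 with the other 501Mel library. With the replicate block 5 of these genes, 26 list genes and 7461 genes in all were called, and the block changed no call of the 10 genes. The other scalings shifted the median of all genes by at most 0.07 on the log2 scale. Asking for an absolute difference of at least 1 left 4 of these genes, 20 list genes and 6157 genes in all. At this depth PDCD1LG2 could not be tested under the main filter.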

Other observations

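Genes outside the naming rule are given here because they complete the called genes of the ligand lists, and they were chosen after their values were seen. ICOSLG, the ligand of the T cell costimulator ICOS, had only 8 and 9 counts, or 0.186 and 0.238 CPM, in 501Mel cells. It had 2.02, 2.08 and 2.36 CPM in Hermes 3A cells, a log2 difference of 3.39 (SE 0.456, edgeR adjusted p = 0.00114). LGALS3, a galectin that binds LAG3 and other glycoproteins, had 210 and 204 CPM against 1249, 1256 and 1190 CPM, a difference of 2.64 (SE 0.171). TNFRSF14, the ligand of BTLA, had a mean of 217 CPM ± 55.2 (SD, n = 2) against 441 CPM ± 50.1 (SD, n = 3), a difference of 1.08 (SE 0.203). ENTPD1 (CD39), which acts before NT5E on extracellular ATP, was higher in 501Mel cells, at 173 CPM ± 20.5 (SD, n = 2) against 37.4 CPM ± 3.47 (SD, n = 3), a difference of -2.15 (SE 0.140). HLA-G, an inhibitory nonclassical MHC molecule, had 9.60 CPM ± 3.09 (SD, n = 2) against 20.3 CPM ± 5.38 (SD, n = 3), a difference of 1.13 (SE 0.313, edgeR adjusted p = 0.0211), and reads of the HLA genes can be split between near-identical copies. The HLA-G call was lost without 501Mel replicate 1 (difference 0.82, edgeR adjusted p = 0.114), without Hermes 3A replicate 2 (adjusted p = 0.0566) or without Hermes 3A replicate 3 (adjusted p = 0.0612).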
